A study of Mus musculus with 7 samples.

Results

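The genes of the DNA methylation and demethylation enzymes were followed in RNA-seq of mouse ovaries. The members, 10 of the 55487 genes counted, were named by their known role, though earlier results of these data were known. They are the 5-methylcytosine dioxygenases Tet1, Tet2 and Tet3, the DNA glycosylases Tdg and Mbd4, the maintenance methyltransferase Dnmt1 with its recruiter Uhrf1, the de novo methyltransferases Dnmt3a and Dnmt3b, and their catalytically inactive partner Dnmt3l. All 10 passed the filter on low counts that left 18779 genes for testing. Ovaries came from C57BL/6J females at diestrus on postnatal day 60, with 1 library per mouse. The 3 CNTR mice were offspring of dams given PBS on days E16.5 to E18.5 of pregnancy. The 4 PAMH F3 mice were of generation 3, descended from F0 dams given human anti-Müllerian hormone (AMH) at 0.12 mg/kg per day over the same days, with no AMH given to the generations between. The CNTR mice were direct offspring of injected dams, so the lineage and the number of generations since the injections cannot be told apart.

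DNA methylation in mammals is mostly 5-methylcytosine at CpG dinucleotides. DNMT3A and DNMT3B place it on unmethylated DNA, with DNMT3L as a stimulating cofactor that is needed in growing oocytes for maternal imprints, and after replication UHRF1 binds hemimethylated CpG sites and brings DNMT1 to copy the mark. TET enzymes oxidize 5-methylcytosine in steps, TDG excises the more highly oxidized of the resulting bases, and MBD4 excises the thymine left when 5-methylcytosine is deaminated. A whole ovary mixes oocytes, granulosa, theca, luteal, stromal and vascular cells, and in such bulk RNA a change in the number of cells of a type and a change in RNA per cell cannot be told apart.

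The RefSeq promoters of the genes on which the results turn are shown first. Each is a 300 base window of GRCm38.p6 from 250 bases before to 50 bases after an annotated start, and the 10 members have 17 such windows among 32851 in all. Windows are shown for Dnmt1 and Uhrf1, which work together at replication, and for Tet1, the member with the smallest p between the groups. For Dnmt1, which is known to use different first exons in oocytes and in somatic cells, the most upstream start (chr9:20959839-20960138, minus strand) and the most downstream start (chr9:20952574-20952873, minus strand) are given. The Uhrf1 window is its downstream start (chr17:56304063-56304362, plus strand) and the Tet1 window is its single start (chr10:62887275-62887574, minus strand). Capitals mark letters of an E2F motif, read as TTTCGCGC, TTTGGCGC, TTTCCCGC or TTTGCCGC on either strand.
Dnmt1 upstream start: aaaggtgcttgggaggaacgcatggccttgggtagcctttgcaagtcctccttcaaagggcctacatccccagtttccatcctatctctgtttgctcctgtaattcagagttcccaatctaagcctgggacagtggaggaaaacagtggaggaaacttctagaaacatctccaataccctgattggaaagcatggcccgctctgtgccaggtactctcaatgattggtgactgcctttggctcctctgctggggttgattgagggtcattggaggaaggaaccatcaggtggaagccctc
Dnmt1 downstream start: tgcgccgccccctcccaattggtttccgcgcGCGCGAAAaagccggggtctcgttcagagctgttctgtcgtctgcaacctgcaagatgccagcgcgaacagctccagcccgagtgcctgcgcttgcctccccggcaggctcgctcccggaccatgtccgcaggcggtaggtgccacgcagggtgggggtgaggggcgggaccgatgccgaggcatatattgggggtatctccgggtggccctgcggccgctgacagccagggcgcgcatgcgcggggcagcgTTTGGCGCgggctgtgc
Uhrf1 downstream start: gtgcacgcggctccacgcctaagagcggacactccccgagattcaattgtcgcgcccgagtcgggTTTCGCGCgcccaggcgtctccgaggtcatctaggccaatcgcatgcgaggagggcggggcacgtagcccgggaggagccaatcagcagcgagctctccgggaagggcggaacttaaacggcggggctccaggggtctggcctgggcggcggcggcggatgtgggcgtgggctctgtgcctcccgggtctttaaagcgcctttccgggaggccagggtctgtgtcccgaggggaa
Tet1 start: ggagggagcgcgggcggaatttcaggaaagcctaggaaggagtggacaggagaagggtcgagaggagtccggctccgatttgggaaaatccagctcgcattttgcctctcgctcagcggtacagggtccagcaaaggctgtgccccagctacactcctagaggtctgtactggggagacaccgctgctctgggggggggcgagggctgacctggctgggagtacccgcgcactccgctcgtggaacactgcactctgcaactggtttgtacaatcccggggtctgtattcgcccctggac

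The E2F motif was found in 2.26% of all promoter windows and in 2 of the 17 member windows, the downstream starts of Dnmt1 and Uhrf1. E2F factors are known to drive genes of the S phase. In the Dnmt1 window the motif occurred 2 times, first at 219 bases before the start, and in the Uhrf1 window it lay 185 bases before the start. The Tet1 window and the upstream Dnmt1 window held none of these letters. A match describes the letters of the window and says nothing on binding in these ovaries. The other 6 motifs searched on both strands were the GC box GGGGCGGGG (4 of 17 member windows and 11.4% of all), the CCAAT box CCAAT (7 of 17 and 37.4%), the E box CACGTG (3 of 17 and 7.15%), the cyclic AMP element TGACGTCA (1 of 17 and 1.79%), the SF1 site CAAGGTCA (0 of 17 and 1.56%) and the NRF1 motif (2 of 17 and 0.971%). Both NRF1 matches lay in Dnmt1 windows. CpG dinucleotides, the substrate of the enzymes themselves, numbered 2 in the upstream Dnmt1 window, fewer than in most of the 32851 windows, whose median was 7. The downstream windows of Dnmt1 and Uhrf1 held 33 CpG each, and Tet1 held 17. Across the other members the number ran from 3 in a Dnmt3l window to 57 in the Tet2 window. Counts were summed per gene, so use of the Dnmt1 starts was not separated here.

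Gene counts summed to 32158174 to 35485021 in a library, and no libraries were alike enough to be the same sample. The libraries differed in GC content. Relative to the mean of all 7 libraries, and with gene length in the same fit, log2 normalized counts in CNTR replicate 2 rose by 0.313 per 10 percentage points of GC. Those in the other libraries moved by between -0.128 and 0.0422. Of the genes listed as testis and Sertoli markers, Prm1 and Tnp1 were at 0 in every library, and Prm2 and Dmrt1 were at 0.0904 CPM or below. Sox9, also on this list of genes that should be absent, was present at 13.7 to 27.0 CPM, and the source of its reads was not tested. Oocyte markers were present in all 7, and markers of oviduct epithelium, a neighboring tissue, summed to between 2611 and 6412 CPM. CPM here are counts scaled to the size of the library after edgeR's TMM normalization.

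**Figure D1:**
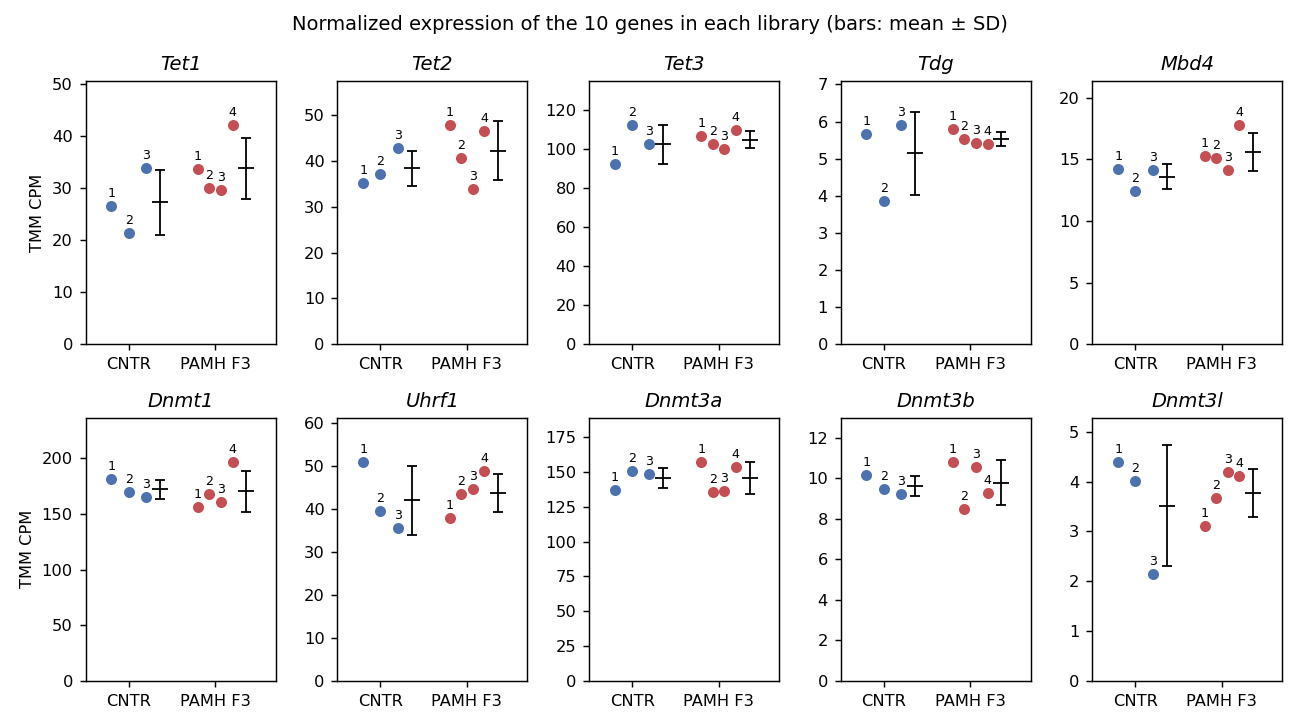
CPM after TMM scaling (vertical axis, from 0) of each of the 10 genes in the 3 CNTR and 4 PAMH F3 libraries, with points numbered by replicate and the bar beside them giving mean and SD. The points of the groups overlap in every panel, and Tet1 has the wider scatter of the TET genes, from 21.3 to 42.1 CPM.

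Dnmt1 and Dnmt3a had the most reads of the members. Averaged over the 7 libraries, Dnmt1 was at 171 CPM and above 94% of the genes tested, Dnmt3a was at 145.5 CPM and above 92.1%, and Tet3 was at 104 CPM and above 87.1%. Uhrf1, Tet2, Tet1 and Mbd4 were in the middle of the distribution at 43.0, 40.5, 31.0 and 14.7 CPM. At the low end were Dnmt3b at 9.71 CPM, Tdg at 5.37 CPM and Dnmt3l at 3.66 CPM, the last being above 29.2% of the genes tested. Dnmt3l rested on 69 to 150 counts per library, so its values carry the largest counting error of the members, 9.01% of a library's value against 1.32% for Dnmt1.

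Levels between genes can be compared only per length, and here the order depended on which length was used. With the union of all exons, Dnmt1 stood at 23.2 CPM per kilobase, ahead of Uhrf1 at 10.1 and Dnmt3a at 8.74, and Tet3 at 6.20 led Tet2 at 2.40 and Tet1 at 2.01. With the median length of a gene's transcripts, the length used by the study for reads per kilobase, Dnmt3a came first at 177 CPM per kilobase and Tet1 was at 51.7. The median transcript was 820.5 bases long for Dnmt3a and 599.5 bases for Tet1, against longest transcripts of 9685 and 14369 bases, since short partial transcripts make up much of their annotation. With the longest transcript the leading order was Dnmt1 at 29.1, Dnmt3a at 15.0, Uhrf1 at 12.0 and Tet3 at 9.50 CPM per kilobase. The mean of Tet3 was above that of Tet2 with each of the 4 lengths tried, the longest transcript and its unique positions being chosen after seeing the data. The libraries of Tet3 and Tet2 did not overlap with 3 of these lengths and overlapped with the median length. Neighbors in the order whose libraries overlapped with the longest transcript were Dnmt3a with Uhrf1, Uhrf1 with Tet3, Tet2 with Mbd4, and the run of Dnmt3b, Tet1, Dnmt3l and Tdg at 2.25, 2.16, 2.01 and 1.53 CPM per kilobase.

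**Figure D2:**
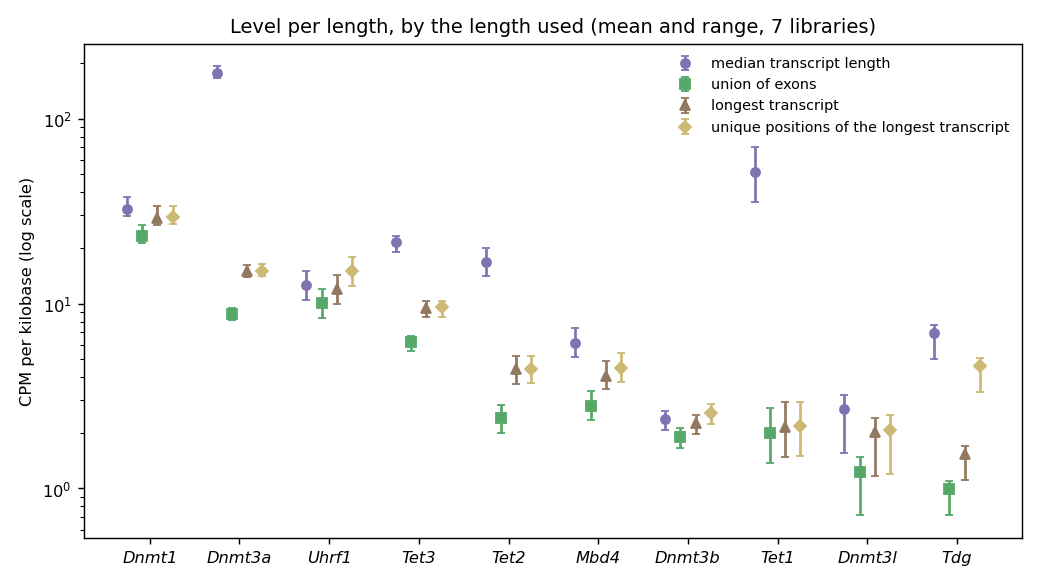
CPM per kilobase on a log axis for each member, with 1 symbol per definition of length, points at the mean and lines from the lowest to the highest of 7 libraries. Dnmt3a and Tet1 stand far higher with the median transcript length, at 177 and 51.7 CPM per kilobase, than with the other lengths, and Tdg stands higher with unique positions than with the longest transcript.

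How well a gene can be counted depends also on its copies in the genome, because only uniquely aligned 50-base reads were counted. For Tdg, 33.68% of the 3453 stretches of 50 bases in its longest transcript were found on neither strand of any other annotated gene. The processed pseudogene Tdg-ps shared 47.4% of these stretches, Gm9855 25.4% and Gm5597 24.1%, and Glt8d2, which ends on the opposite strand inside Tdg, shared 9.21%. The pseudogenes themselves had at most 9 counts in a library. Per kilobase of unique stretches Tdg was at 4.62 CPM, against 1.53 CPM per kilobase of the whole transcript, which moved it from the last place among the 10 members to the fifth.

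For Uhrf1 the unique share was 81.1%, with 18.0% shared with the pseudogene Gm5648, which had 0 to 3 counts. Dnmt3b had a unique share of 88.5%, with 11.5% shared with its neighbor Dnmt3c, a methyltransferase known from male germ cells, which had 1 to 7 counts. The other members ranged from 92.5% for Mbd4 to 100%. Dnmt3l shares 67 exon bases with Aire on the opposite strand, a gene with 53 to 77 counts per library. Reads in such overlaps are assigned by strand if HTSeq-count was run with its strand setting, which the sources used here do not give.

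**Figure D3:**
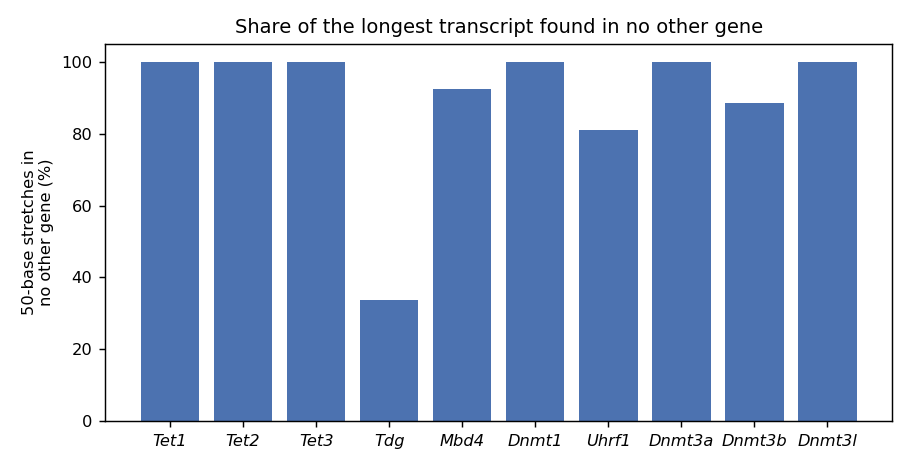
Share, in percent, of the 50-base stretches in the longest transcript of each member that occur in no other annotated gene. Tdg, at 33.7%, is the lowest bar, followed by Uhrf1, Dnmt3b and Mbd4.

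Between the groups, none of the 10 members passed the adjusted threshold. In edgeR's quasi-likelihood test with 2 surrogate variables, which model unwanted variation between libraries, 0 of 18779 genes (0.0%) had an adjusted p of at most 0.05, so the members are no exception. DESeq2, run without edgeR's filter on 33791 and 33785 genes, passed 101 genes when given these surrogate variables and 6 when not, and 0 members either way. At an unadjusted p under 0.05 there was 1 member of 10, Tet1, against 1442 of 18779 genes (7.68%), and 706 genes (3.76%) were higher in PAMH F3 with such a p. Without surrogate variables 0 of the 10 members had an unadjusted p under 0.05, against 3.95% of all genes. The CPM of the PAMH F3 and CNTR libraries overlapped for all 10 members, whereas 4.25% of all genes had groups without overlap. With 35 ways to divide the libraries, the smallest two-sided p of an exact permutation test is 0.0286.

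Tet1 (ENSMUSG00000047146, chromosome 10, 62804570 to 62908996) encodes a dioxygenase known for its role in erasing methylation in germ cells. Its CNTR libraries were at 26.5, 21.3 and 33.9 CPM, and its PAMH F3 libraries were at 33.6, 30.0, 29.5 and 42.1 CPM. PAMH F3 replicate 4 was the highest and CNTR replicates 2 and 1 were the lowest, but CNTR replicate 3 lay above 3 of the 4 PAMH F3 libraries, so that the groups overlapped. The means were 27.2 ± 6.29 CPM (SD, n = 3) and 33.8 ± 5.84 CPM (SD, n = 4). In edgeR's quasi-likelihood test the log2 fold change of PAMH F3 over CNTR was 0.28 (SE 0.0824, unadjusted p = 0.0109, adjusted p = 0.537), a fold of 1.21 with a 95% interval from 1.06 to 1.39. Without surrogate variables the estimate was close, 0.31, but its SE was 0.177 and the unadjusted p was 0.112. The exact permutation test, two-sided, on the CPM values gave p = 0.286. With CNTR replicate 2 left out, the log2 fold change was 0.22 in edgeR's quasi-likelihood test.

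Tet2 (ENSMUSG00000040943, chromosome 3, 133463679 to 133545139), the TET enzyme known for its loss in blood cancers, was at 35.3, 37.1 and 42.7 CPM in CNTR and at 47.8, 40.6, 33.8 and 46.5 CPM in PAMH F3. The lowest and the highest libraries were both PAMH F3, replicates 3 and 1. The log2 fold change was 0.13 (SE 0.0962, adjusted p = 0.80 in edgeR's quasi-likelihood test), and the exact permutation test, two-sided, gave p = 0.371.

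Tet3 (ENSMUSG00000034832, chromosome 6, 83362373 to 83459084), known as the TET enzyme stored by the oocyte that acts on the paternal genome after fertilization, was at 92.1, 112 and 102 CPM in CNTR and at 106, 103, 99.9 and 109.6 CPM in PAMH F3. The PAMH F3 libraries all lay within the range of the CNTR libraries. Its 7 libraries had a coefficient of variation (CV) of 6.43%, against 21.1% for Tet1 and 13.5% for Tet2. The log2 fold change of Tet3 was 0.08 (95% interval -0.07 to 0.24, adjusted p = 0.806 in edgeR's quasi-likelihood test).

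Of the glycosylases, Mbd4 (ENSMUSG00000030322, chromosome 6, 115840697 to 115853371) was at 14.2, 12.4 and 14.1 CPM in CNTR and at 15.3, 15.1, 14.1 and 17.8 CPM in PAMH F3. Only PAMH F3 replicate 3 lay within the CNTR range, and the other PAMH F3 libraries were above it. Its log2 fold change was 0.16 (SE 0.0952, adjusted p = 0.755 in edgeR's quasi-likelihood test), and the exact permutation test, two-sided, gave p = 0.0857. Tdg (ENSMUSG00000034674, chromosome 10, 82629828 to 82650799) was at 5.66, 3.87 and 5.91 CPM in CNTR and at 5.81, 5.54, 5.41 and 5.39 CPM in PAMH F3. CNTR replicate 2 stood below all other libraries, and the PAMH F3 libraries were close to each other, with a CV of 3.46% against 21.6% in CNTR. The counting error of Tdg was 7.445% of a library's value, above the PAMH F3 CV. That CV was therefore not read as the spread between mice. The log2 fold change of Tdg was 0.04 (95% interval -0.31 to 0.40, adjusted p = 0.973 in edgeR's quasi-likelihood test), and leaving out CNTR replicate 2 turned it to -0.059.

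The library CNTR replicate 2, with the different GC slope, held the lowest CPM of Tet1, Tdg and Mbd4, whose exons are 49.0%, 47.7% and 45.7% GC, and the highest CPM of Tet3, at 57.2% GC. Tet2, with the lowest GC of the members at 45.55%, had this library at rank 5 of 7, counted from the highest, and the remaining members had it at ranks 3 to 5. Correction of each library for GC content and length was run without surrogate variables, so it is set beside the values without them. The log2 fold change of Tet1 was 0.31 in both, that of Tet2 was 0.14 without the correction and 0.07 with it, and that of Tet3 was 0.03 without and 0.13 with it (unadjusted p = 0.0988 in edgeR's quasi-likelihood test).

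Among the maintenance genes, Dnmt1 (ENSMUSG00000004099, chromosome 9, 20907209 to 20959888) was at 181, 169.8 and 165 CPM in CNTR and at 156, 168, 160.3 and 197 CPM in PAMH F3. Both the lowest and the highest library were PAMH F3, replicates 1 and 4, and they enclosed all CNTR libraries. The means were 172 ± 8.42 CPM (SD, n = 3) and 170.3 ± 18.4 CPM (SD, n = 4), with a log2 fold change of -0.04 (95% interval -0.25 to 0.18, adjusted p = 0.958 in edgeR's quasi-likelihood test). As a fold the interval ran from 0.838 to 1.13.

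Uhrf1 (ENSMUSG00000001228, chromosome 17, 56303321 to 56323486) was at 51.0, 39.5 and 35.5 CPM in CNTR and at 37.9, 43.6, 44.7 and 48.8 CPM in PAMH F3. The CNTR libraries enclosed the PAMH F3 libraries, since CNTR replicate 1 was the highest of the 7 and CNTR replicate 3 the lowest. The means were 42.0 ± 8.06 CPM (SD, n = 3) and 43.7 ± 4.48 CPM (SD, n = 4), and the log2 fold change was 0.0038 (SE 0.117, adjusted p = 0.998 in edgeR's quasi-likelihood test). The 95% interval of the fold was 0.83 to 1.21, and the exact permutation test, two-sided, gave p = 0.686. The sign of this estimate depended on single libraries, with -0.11 when PAMH F3 replicate 4 was left out and 0.22 when CNTR replicate 1 was.

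The de novo methyltransferase Dnmt3a (ENSMUSG00000020661, chromosome 12, 3806007 to 3914443) was at 137, 150.4 and 149 CPM in CNTR and at 157, 135.5, 136 and 153 CPM in PAMH F3. The PAMH F3 libraries fell on both sides of the CNTR range, 2 above it and 2 below. Its mean was 145.4 ± 7.10 CPM in CNTR (SD, n = 3) and 145.6 ± 11.4 CPM in PAMH F3 (SD, n = 4), and its log2 fold change was 0.01 (95% interval -0.16 to 0.18, adjusted p = 0.987 in edgeR's quasi-likelihood test).

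Dnmt3b (ENSMUSG00000027478, chromosome 2, 153649450 to 153687730) was at 10.2, 9.48 and 9.22 CPM in CNTR and at 10.8, 8.46, 10.5 and 9.28 CPM in PAMH F3. The groups overlapped throughout, and the log2 fold change was -0.0038 (95% interval -0.31 to 0.30, adjusted p = 0.998 in edgeR's quasi-likelihood test). Dnmt3l (ENSMUSG00000000730, chromosome 10, 78041947 to 78063622) was at 4.40, 4.02 and 2.13 CPM in CNTR and at 3.12, 3.67, 4.18 and 4.11 CPM in PAMH F3. CNTR replicate 3, with 69 counts, was the lowest library, and CNTR replicate 1 the highest. The log2 fold change of Dnmt3l was 0.10 (SE 0.219, adjusted p = 0.947 in edgeR's quasi-likelihood test), and its fold interval, 0.752 to 1.53, was the widest of the 10 members.

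**Figure D4:**
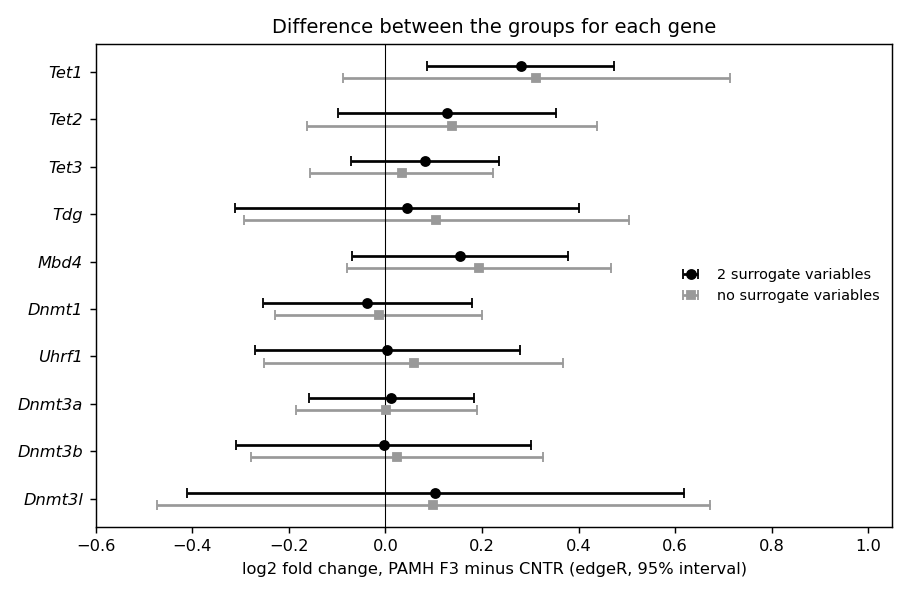
The log2 fold change of PAMH F3 over CNTR for each member (horizontal axis) with its 95% interval from edgeR, with 2 surrogate variables (black circles) and without (gray squares). The interval of Tet1 leaves out 0 with surrogate variables and includes it without them, and every other interval includes 0.

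Side by side, 8 of the 10 members had a log2 fold change above 0 and 2, Dnmt1 and Dnmt3b, had one below 0, while 51.7% of all genes tested were above 0. The median log2 fold change of the members was 0.06 and that of all genes 0.01, and the median size was 0.06 against 0.10 over all genes. The summed CPM of the 10 members lay between 558 and 560.0 in CNTR and between 538 and 634 in PAMH F3.

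The spread over all 7 libraries is given next for several members beside genes of like level, with no test. This spread includes any difference between the groups and any technical difference between libraries. Tet1 had a CV of 21.1% over the 7 libraries, above that of 87.8% of the 3360 genes within 1.5-fold of its level, whose median was 10.4%. Dnmt3l had a CV of 21.7%, but at its low level the median gene had 19.1%. Uhrf1, with 13.3%, and Tet2, with 13.5%, were above 71.1% and 70.7% of the genes at their levels. At the other end, Dnmt3b varied by 8.59% where the median gene at its level varied by 15.3%, and Dnmt3a by 6.22% where the median gene varied by 8.21%. For Tet1 the highest library was 1.98 times the lowest, and for Dnmt3a 1.16 times.

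Uhrf1 and Dnmt3l were ordered across the libraries much as the oocyte markers were, a likeness noticed after their values were seen. The summed CPM of 15 oocyte markers was 664, 599.9 and 549.9 in CNTR and 429.6, 618, 645 and 689.9 in PAMH F3, with PAMH F3 replicate 4, CNTR replicate 1 and PAMH F3 replicate 3 the highest and PAMH F3 replicate 1 and CNTR replicate 3 the lowest. The same 3 libraries were the highest 3 for Uhrf1 and for Dnmt3l, and the same 2 were the lowest. No other member had these 3 libraries highest, and Tet3, known as stored by the oocyte, had CNTR replicate 1 lowest. PAMH F3 replicate 4 was also the highest library for Tet1, Dnmt1, Mbd4 and the summed granulosa markers, so its place was not particular to oocyte markers. The summed CPM of 15 markers of dividing cells was 998, 643 and 804 in CNTR and 797, 932, 875 and 1042 in PAMH F3, and its highest libraries, PAMH F3 replicate 4 and CNTR replicate 1, were the highest for Dnmt1 and for Uhrf1. Its lowest library, CNTR replicate 2, was the third highest for Dnmt1. Of the oocyte markers 0 of 15, and of the markers of dividing cells 0 of 15, had an unadjusted p under 0.05 between the groups, and the part of oocyte number or cell division in the values of the members was not tested.

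**Figure D5:**
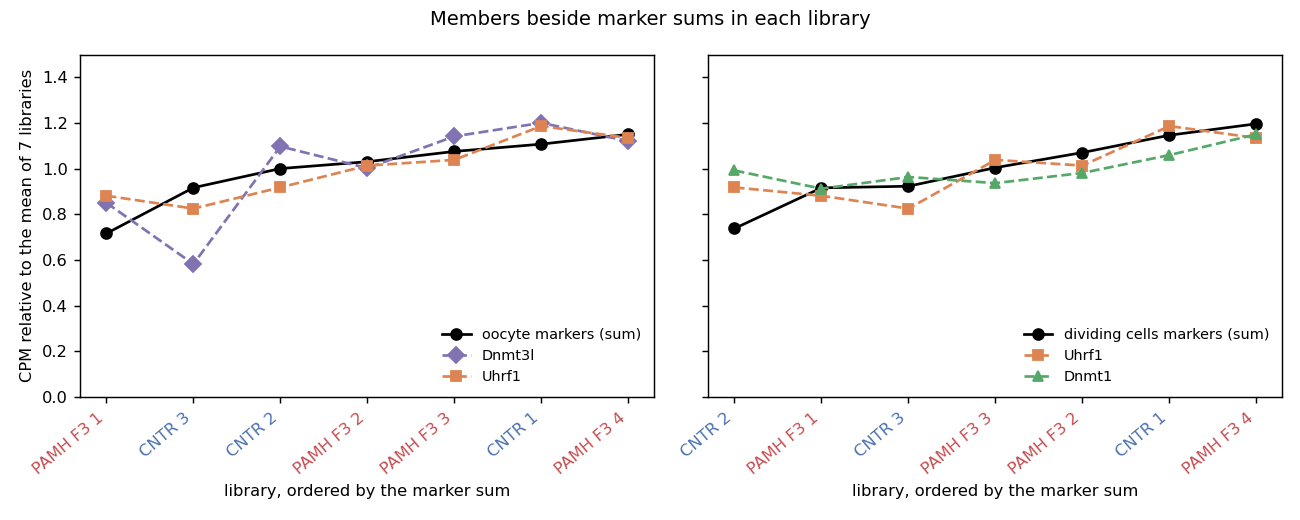
CPM in each library divided by the mean of the 7 libraries, with libraries ordered by the summed oocyte markers (left, with Dnmt3l and Uhrf1) or the summed markers of dividing cells (right, with Uhrf1 and Dnmt1). Labels in blue are CNTR and in red PAMH F3, and the 2 libraries lowest in oocyte markers are also the lowest in Dnmt3l and Uhrf1.

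Several other marker lists held genes with an unadjusted p under 0.05, to be read against 7.68% of all genes. Such a p in edgeR's quasi-likelihood test was found for 4 of 8 granulosa markers, with Inhbb and Hsd17b1 higher in PAMH F3 and Foxl2 and Amh lower. It was found for 2 of 5 luteal markers (Prlr and Ptgfr) and 2 of 5 endothelial markers (Pecam1 and Emcn), all lower. It was found for 1 of 6 leukocyte markers (Cd79a, lower, at 0.934 CPM or below in every library) and for 1 of 5 tested theca and stroma markers (Aldh1a1, higher). It was found for 0 of 5 smooth muscle, 0 of 5 oviduct and 0 of 4 adipocyte markers, and not for Sox9, the 1 testis and Sertoli marker tested. None passed the adjusted threshold. Without surrogate variables the counts were 2 granulosa, 1 luteal, 1 endothelial, 1 leukocyte and 0 theca and stroma markers. The 1 endothelial marker was then Tie1 (unadjusted p = 0.0475 in edgeR's quasi-likelihood test). Pecam1 and Emcn had 0.0899 and 0.0948 in that test. The summed CPM of granulosa markers was 2673 to 4093 in CNTR and 3060 to 4216 in PAMH F3, and the part of cell composition in the values of the members was not tested.

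The pathways around the members were described from 5 lists of genes. The list of methyl-CpG readers and UHRF1 partners had 0 of 16 genes with an unadjusted p under 0.05 in either direction and a median log2 fold change of -0.0003, against 0.01 over all genes. Mbd3, a subunit of the NuRD complex and the most abundant of the list per length of its exon union (Usp7 was with the median transcript length), was at 106 ± 22.5 CPM in CNTR (SD, n = 3) and 93.1 ± 13.2 CPM in PAMH F3 (SD, n = 4). The list of chromatin marks and proteins that guide or protect methylation had 0 of 11 tested genes, with a median of 0.04, and its Dnmt3c was too low to test. Trim28, its most abundant gene with both lengths and the corepressor of KRAB zinc finger proteins at imprinted regions, was at 315 ± 3.98 CPM in CNTR (SD, n = 3) and 329 ± 21.7 CPM in PAMH F3 (SD, n = 4).

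Of the steps after TET and TDG, 3 of 15 genes had an unadjusted p under 0.05, all lower in PAMH F3, against 7.68% of all genes, with a list median of -0.02. Without surrogate variables 1 of 15, Gadd45b, had such a p. The 3 genes were Gadd45a, Gadd45b and Gadd45g, stress-induced genes proposed to help recruit repair to methylated DNA. Gadd45b was at 9.31, 17.4 and 12.0 CPM in CNTR and at 7.65, 8.07, 8.87 and 8.09 CPM in PAMH F3. Every PAMH F3 library of Gadd45b was below every CNTR library, with a log2 fold change of -0.45 (SE 0.113, unadjusted p = 0.0051, adjusted p = 0.508 in edgeR's quasi-likelihood test). Groups without overlap were found for 1 of 15 genes of this list, against 4.25% of all genes.

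The exact permutation test, two-sided, of Gadd45b gave p = 0.0286, the smallest it can give. Gadd45a was at 59.5, 109.9 and 69.7 CPM in CNTR and at 50.3, 58.8, 75.2 and 46.7 CPM in PAMH F3, and Gadd45g at 5.79, 20.7 and 7.64 CPM and at 4.90, 5.93, 8.56 and 4.77 CPM. For these 2 genes the groups overlapped, and CNTR replicate 2, the library with the different GC slope, was the highest for all 3. Their log2 fold changes were -0.26 for Gadd45a and -0.38 for Gadd45g, with adjusted p values of 0.508 and 0.599 in edgeR's quasi-likelihood test. Without surrogate variables they were -0.46 and -0.91, with unadjusted p values of 0.0666 and 0.0533. Apex1, the abasic site endonuclease and the most abundant gene of the list per length of its exon union (Parp1 was with the median transcript length), was at 92.7 ± 6.10 CPM in CNTR (SD, n = 3) and 91.4 ± 6.87 CPM in PAMH F3 (SD, n = 4).

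Of the S-adenosylmethionine supply and one-carbon cycle, 2 of 19 genes had an unadjusted p under 0.05, both higher in PAMH F3, against 7.68% of all genes, and 0 of 19 had one without surrogate variables. The list median was 0.003. Mtr, the methionine synthase, was at 68.0, 70.5 and 88.1 CPM in CNTR and at 86.4, 81.9, 76.7 and 99.4 CPM in PAMH F3, a log2 fold change of 0.21 (adjusted p = 0.508 in edgeR's quasi-likelihood test). CNTR replicate 3 lay above 3 of the PAMH F3 libraries, so the groups overlapped. Cbs, which draws homocysteine away from methionine, had a log2 fold change of 0.31 (adjusted p = 0.537 in edgeR's quasi-likelihood test), with libraries from 330.0 to 573 CPM in CNTR and from 311 to 641 CPM in PAMH F3. Cbs had 0.17 without surrogate variables (unadjusted p = 0.541 in edgeR's quasi-likelihood test). Mat2a, which makes S-adenosylmethionine and was the most abundant of the list with both lengths, was at 311 ± 20.7 CPM in CNTR (SD, n = 3) and 305 ± 19.4 CPM in PAMH F3 (SD, n = 4).

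Of the TET cofactors and recruiters, 1 of 9 genes had an unadjusted p under 0.05, against 7.68% of all genes, and 0 of 9 had one without surrogate variables. The list median was -0.04. It was Idh1, which makes the 2-oxoglutarate that TET enzymes need and was also the most abundant of the list with both lengths. Idh1 was at 1656, 1248 and 1574 CPM in CNTR and at 1461, 1041, 846 and 1214 CPM in PAMH F3. All but 1 of the PAMH F3 libraries were below every CNTR library, and the log2 fold change was -0.51 (SE 0.122, adjusted p = 0.508 in edgeR's quasi-likelihood test). Without surrogate variables it was -0.39 (unadjusted p = 0.0591 in edgeR's quasi-likelihood test). No gene of the 5 lists passed the adjusted threshold.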

How the data were processed

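RNA-seq libraries of 7 ovaries (3 CNTR, 4 PAMH F3) were analysed, grouped by their sample labels. The authors made stranded poly(A) libraries, converted base calls with bcl2fastq 2.17.1.14, aligned single 50-base reads to mm10 with STAR 2.5.3a and counted uniquely aligned reads per Ensembl gene with HTSeq 0.6.1p1 in union mode. The values they deposited are raw counts per gene without normalization, and between 37.7% and 40.7% of alignments per library were set aside as not unique, which lowers genes with close copies. Between 5.82% and 7.37% fell outside genes. The Ensembl release and the strand setting of HTSeq are not given in the sources used here. Summary lines that name no gene were left out. Of 55487 identifiers, 55394 were matched to GENCODE M21.

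Counts of the 18779 genes kept by filterByExpr (minimum count 10) were TMM-normalized and tested with edgeR 4.0.16 in R 4.3.3, by its quasi-likelihood F test with 2 surrogate variables from sva 3.50.0. The Benjamini-Hochberg adjustment ran over all genes tested, with a threshold of 0.05. The study used DESeq2 with sva and independent hypothesis weighting, and DESeq2 1.42.0 is an alternative here. CPM of single genes were compared by exact permutation tests, two-sided. P values of the main fit set a difference against the spread between mice left after 2 surrogate variables. Those of the permutation tests and of fits without surrogate variables rest on the full spread between mice. In simulated data, with the same dispersion set for every gene, the test called 16.4% of the genes changed by a log2 fold of 0.5. It called 89.6% of those changed by 1 and 100% of those changed by 2. There were 7 false calls, and 0 calls in a simulated set without changes. Changes below 0.5 were not simulated, and the largest log2 fold change of a member was 0.28.

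Lengths and shared 50-base stretches came from GENCODE M21 transcripts, and promoters from RefSeq on GRCm38.p6, which held at least 1 for all 10 members. The windows were searched on both strands for 7 motifs. The 10 members, the pathway lists and the marker lists were chosen with earlier results of these data known. From each pathway list, genes with an unadjusted p under 0.05 and the most abundant gene per length of its exon union are named, and marker genes were named after their values were seen. Alternatives changed the number of surrogate variables, the tool, the scaling, the filter, GC content and length correction, a replicate block and the libraries. The other assays of the study were not analysed here.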

Additional observations from a re-analysis of the deposited data

How the results depend on the processing

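No alternative moved a member past the adjusted threshold. The number of genes that differed, 0 in edgeR, was 101 with DESeq2 and the same surrogate variables and 6 with DESeq2 without them, both run without edgeR's filter on low counts, 10 in edgeR without the filter, and between 0 and 299 with a library left out (299 if CNTR replicate 1 was dropped, 36 if PAMH F3 replicate 1 was). The 1 member with an unadjusted p under 0.05, Tet1, became 0 without surrogate variables in edgeR or DESeq2, and was also 0 with the GC and length correction and with the replicate block, both of which were run without surrogate variables. It was between 1 and 2 with a library left out (Tet3 added without CNTR replicate 2 and Tet2 without PAMH F3 replicate 3). Over all genes the share with such a p then ranged from 4.36% (without PAMH F3 replicate 2) to 18.7% (without CNTR replicate 1). The direction of Tet1, Tet2 and Mbd4 was the same in 15 of 15 alternatives each, and Tet1 had an unadjusted p under 0.05 in 11 of them. All 11 used surrogate variables, and no fit without them gave Tet1 such a p. The alternatives share most of their libraries, so they are not separate tests. Members whose groups did not overlap, 0, became 1 (Mbd4) in CPM without TMM factors and ranged from 0 to 1 with a library left out (Mbd4 without CNTR replicate 1 or PAMH F3 replicate 3, and Tet1 without CNTR replicate 3). The share over all genes was 4.25% with all libraries and is not given for these alternatives. Groups of fewer libraries separate more easily, so these counts were not read as a result about the members. Near 0, signs turned: the log2 fold change of Dnmt3a was -0.0043 with 1 surrogate variable, and that of Dnmt3b was 0.024 with 0, 0.026 with 1, 0.026 in DESeq2 without surrogate variables and 0.028 with the GC and length correction and 0 surrogate variables. With a library left out it ranged from 0.082 to 0.22 for Tet2 (lowest without CNTR replicate 1 and highest without PAMH F3 replicate 3), from -0.024 to 0.13 for Tet3, from -0.12 to 0.025 for Dnmt1, from -0.03 to 0.048 for Dnmt3a, from -0.052 to 0.071 for Dnmt3b, from -0.15 to 0.37 for Dnmt3l, from -0.11 to 0.22 for Uhrf1 and from -0.059 to 0.19 for Tdg. With the replicate block and 0 surrogate variables, Dnmt3a was at -0.027 and Dnmt3b at 0.041. The same replicate numbers did not pair the libraries, since deviations of same-numbered libraries correlated at 0.0957, 0.0965 and -0.248 across genes. Against the order of levels by median transcript length, 2 members kept their place with the union of exons, 3 with the longest transcript and 1 with its unique positions. The cause of these changes was not tested. With 3 CNTR and 4 PAMH F3 mice and 2 surrogate variables, the fold intervals of the members reached down to 0.752 and up to 1.53. Without surrogate variables the log2 interval of Dnmt3l ran from -0.474 to 0.671, against -0.411 to 0.618 with them.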
